A study of Mus musculus with 12 samples.

Results

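H4K20me3 domains that lie wholly inside protein-coding genes numbered 3957, of 28210 domains in the whole list. They were chosen by position: on chromosomes 1 to 19, with a start at or after 8 Mb, a width of at least 1 kb and under 10 kb, and both boundaries within the body of at least 1 RefSeq protein-coding gene of GRCm38.p6, the assembly of mm10. Of 20695 autosomal domains within the same width and start limits, they made up 19.1%. Another 286 (1.38%) overlapped a protein-coding gene without lying inside one, and 16452 (79.5%) overlapped none. The samples are H4K20me3 ChIP-seq of the mouse embryonic stem cell line dTKO, which has the genotype Suv39h1fl/fl ; Suv39h2-/- ; Setdb1fl/fl in every sample. Suv39h1, Suv39h2 and Setdb1 encode H3K9 methyltransferases, and the study asks how H4K20me3 decays when these enzymes are removed. Auxin (100 μg/ml) and dTAG13 (0.5 μM), small molecules that trigger destruction of proteins with matching degron tags, were given for 0, 12, 24 or 48 h, with 3 replicates at each time and 12 samples in all. Each domain in the list has a chromosome, a start and an end. No signal, score or sample is attached, which leaves decay, library depth and replicate error unmeasured. All values are therefore descriptions of 1 list, with no test.

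H4K20me3 is trimethylation of lysine 20 of histone H4. It is laid down mainly by the Kmt5b and Kmt5c enzymes, which are recruited by HP1 proteins bound to H3K9me3, and it is known from pericentromeric repeats, telomeres and silent retroelements. In embryonic stem cells, Setdb1 with the corepressor Trim28 marks endogenous retroviruses, many of which stand in introns. A domain inside a gene body therefore need not concern the gene's own promoter. The gene table used here gives gene bodies without exons, so whether a domain lay over an exon, an intron or a UTR was not determined.

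Where these domains met promoter windows, the sequences are shown first, because they tie a domain to a defined start of transcription. How many they meet is largely set by the rule: a domain inside a gene can share at most 50 bases with the window at that gene's own 5′ end, and otherwise meets windows of internal starts or of other genes. Among 30126 autosomal RefSeq promoter windows, each 250 bases before to 50 after a start, 41 (0.136%) shared at least 1 base with a domain inside a gene. Domains of the whole list, of any width and free of this limit, met 560 (1.86%), so the values are not like for like. The 41 windows lay under 38 domains, and 28 windows were wholly covered. Of the 41, 19 belonged to the host gene itself, 2 to another protein-coding gene and 20 to noncoding genes nested in or overlapping the host. Windows under these domains had a median GC content of 50.0% and a median of 5 CG dinucleotides, against 53.0% and 7 in all windows, and 24.4% of them against 43.8% held at least 10 CG. The 560 windows under any domain, which include these 41, were much alike, with 49.7%, a median of 5 CG and 31.8%. These values are therefore not particular to domains inside genes. The count of 41 is small, and the windows were not matched for gene type. Noncoding windows as a whole had a median of 4 CG, and so did the 20 under these domains. Protein-coding windows as a whole had a median of 14, and the 21 under these domains 6. The rule also bears on which starts are met, since it limits overlap with the window at a host's own 5′ end. These medians are therefore not like for like.

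The 5 windows printed next, from RefSeq on GRCm38.p6, are examples chosen after their values were seen: 1 with 16 CG, above the median of protein-coding windows, 2 with 10, 1 with 2 and 1 with none. Each is wholly inside a domain and is written 5′ to 3′ on the gene's strand, with every CG in capitals. Zfp445 encodes a KRAB zinc finger protein that maintains genomic imprints, and the window (chr9:122865957-122866256, minus strand, 10 CG) lay in a domain of 1.65 kb at 122865751 to 122867400. Timm8a2 encodes a mitochondrial import chaperone of the Tim8 family, and its window (chr14:122034424-122034723, plus strand, 10 CG) lay in a domain of 1.65 kb. Ttll9 belongs to the tubulin tyrosine ligase-like family (chr2:152962235-152962534, plus strand, 16 CG, domain of 3.6 kb). Bbox1 encodes the last enzyme of carnitine synthesis (chr2:110305676-110305975, minus strand, 2 CG, domain of 1.35 kb). The long noncoding RNA 6430411K18Rik starts inside the body of Rtl1, a retrotransposon-derived imprinted gene (chr12:109591287-109591586, plus strand, 0 CG, domain of 1.65 kb).
Zfp445: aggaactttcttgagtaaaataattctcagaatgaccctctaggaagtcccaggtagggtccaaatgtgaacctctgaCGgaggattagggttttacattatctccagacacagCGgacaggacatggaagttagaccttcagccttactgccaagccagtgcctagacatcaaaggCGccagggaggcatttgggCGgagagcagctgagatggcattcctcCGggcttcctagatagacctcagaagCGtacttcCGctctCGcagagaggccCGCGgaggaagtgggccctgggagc
Timm8a2: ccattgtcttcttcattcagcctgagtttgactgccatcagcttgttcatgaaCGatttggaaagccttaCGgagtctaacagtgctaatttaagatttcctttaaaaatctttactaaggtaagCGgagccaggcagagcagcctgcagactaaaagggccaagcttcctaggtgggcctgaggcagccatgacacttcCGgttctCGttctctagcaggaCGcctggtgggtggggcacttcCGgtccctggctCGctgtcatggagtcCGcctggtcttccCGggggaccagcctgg
Ttll9: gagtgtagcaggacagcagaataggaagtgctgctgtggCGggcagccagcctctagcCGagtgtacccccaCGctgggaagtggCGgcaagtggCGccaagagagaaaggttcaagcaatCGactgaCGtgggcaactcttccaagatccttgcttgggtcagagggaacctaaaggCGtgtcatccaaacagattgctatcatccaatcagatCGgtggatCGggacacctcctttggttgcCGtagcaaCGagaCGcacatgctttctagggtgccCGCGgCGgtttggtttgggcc
Bbox1: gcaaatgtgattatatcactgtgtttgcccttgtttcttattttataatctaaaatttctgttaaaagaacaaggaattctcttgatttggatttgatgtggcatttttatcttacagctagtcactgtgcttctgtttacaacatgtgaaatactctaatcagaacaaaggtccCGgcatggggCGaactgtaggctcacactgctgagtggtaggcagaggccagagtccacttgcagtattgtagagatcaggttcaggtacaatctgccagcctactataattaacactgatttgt
6430411K18Rik: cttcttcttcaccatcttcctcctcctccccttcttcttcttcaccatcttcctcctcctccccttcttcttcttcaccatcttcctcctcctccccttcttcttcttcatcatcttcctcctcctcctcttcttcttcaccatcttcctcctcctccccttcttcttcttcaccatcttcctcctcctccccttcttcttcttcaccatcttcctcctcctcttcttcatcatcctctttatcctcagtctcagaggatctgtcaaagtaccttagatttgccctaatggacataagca
In each of the first 4, the domain covered a start that lay inside the annotated body of its own gene, so the body reaches further upstream than that start. No search for shared motifs was made in these windows.

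The domains also contained 3 miRNA genes, and the mature sequences that RefSeq gives for Mir433 and Mir692-2 are shown as the short RNAs annotated at the covered loci. RefSeq gives the same mature mmu-miR-692 for Mir692-1 and Mir692-3, so that sequence is not particular to the covered locus. The Rtl1 domain at 109590601 to 109592250 of chromosome 12 that covers the 6430411K18Rik start also contains Mir433, whose products are maternally expressed and antisense to Rtl1. In Grik3, a kainate receptor gene, a domain of 2.55 kb on chromosome 4 (125503951 to 125506500) contains Mir692-2 and the ferritin pseudogene Ftl2-ps. In Klhl3, an adaptor of the Cullin 3 ubiquitin ligase, a domain of 2.1 kb on chromosome 13 contains Mir874. Capitals mark the seed, bases 2 to 8.
mmu-miR-433-5p: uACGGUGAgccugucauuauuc
mmu-miR-433-3p: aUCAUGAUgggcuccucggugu
mmu-miR-692: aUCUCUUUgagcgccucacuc
The 3 mature miRNAs have 3 different seeds.

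Host genes were long. The 3957 domains fell in 2082 host genes, which is 10.6% of the 19695 autosomal protein-coding genes that end after 8 Mb. Hosts had a median length of 110.9 kb (quartiles 48.1 and 252.3 kb), against 14.9 kb (quartiles 5.09 and 35.1 kb) for the 17613 other genes. A long body offers more room for a domain, so host counts were read within length classes. Under 10 kb, 25 of 6972 genes were hosts (0.359%), and from 10 to 30 kb 242 of 5796 (4.18%). The class from 30 to 100 kb had 709 hosts of 4696 genes (15.1%), and that from 100 to 300 kb 674 of 1714 (39.3%). Of 463 genes from 300 to 1000 kb, 378 were hosts (81.6%), and above 1000 kb all 54 were (100%).

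Domains were also denser in longer genes after allowing for their length. Genes under 10 kb had 0.860 such domains per Mb of gene body, a value that the requirement of lying wholly inside holds down in short genes. The next 3 classes had 2.35, 3.44 and 4.00 per Mb. Genes of 300 to 1000 kb had 5.71 and genes above 1000 kb had 6.60, where the requirement of lying inside excludes little. Over the union of all protein-coding bodies, 947.8 Mb, the density was 4.17 per Mb. Outside these bodies, domains of the same width and start limits that overlapped no protein-coding gene stood at 12.1 per Mb. The 6.60 per Mb of the longest genes lay between these values.

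**Figure D1:**
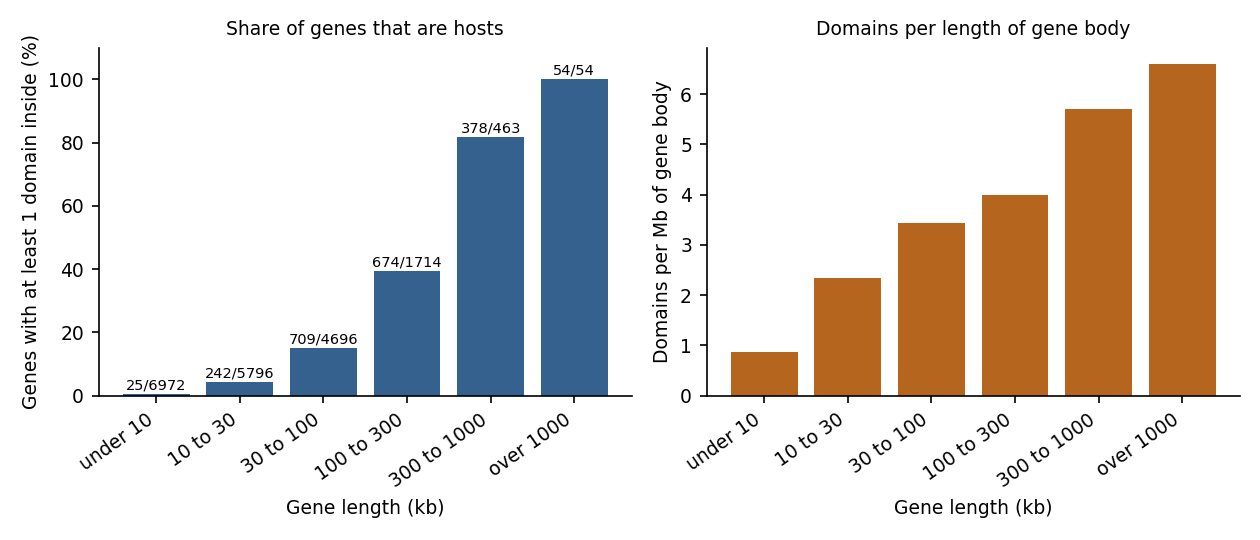
Left, the percentage of protein-coding genes with at least 1 H4K20me3 domain wholly inside, by gene length class in kb, with hosts and genes written above each bar. Right, domains per Mb of gene body in the same classes, which go up from 0.860 under 10 kb to 6.60 above 1000 kb.

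Most hosts had a single domain, while a small set of very long genes had many. There were 1347 hosts (64.7%) with 1 domain, 358 (17.2%) with 2, 268 (12.9%) with 3 to 5, 82 (3.94%) with 6 to 10 and 27 (1.30%) with more than 10. The median was 1 and the mean 1.93. The 27 hosts with more than 10 domains held 398 of the 4019 domain-host pairs (9.90%). Pairs exceed domains because 20 domains lay inside more than 1 annotated gene. The most, 16, were overlapping genes of the protocadherin alpha cluster on chromosome 18, whose members share their 3′ exons. A median of 3.63% of a host's body was covered (quartiles 1.85 and 7.54%), 393 hosts had at least 10% covered and 4 at least 50%.

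The 10 hosts with the most domains included several genes known from fragile sites and from neuronal cell adhesion. Fhit, a diadenosine triphosphate hydrolase gene at a fragile site (chromosome 14, 9550092 to 11162061, minus strand), held 22 domains that covered 68.85 kb, or 4.27% of its 1612 kb. Their widths ran from 1.05 to 9.9 kb with a median of 2.48 kb, and gaps between neighbours from 3.3 to 191.9 kb with a median of 52.65 kb. They stood along most of the gene, the first 118.8 kb from the 5′ end and the last 114.9 kb from the 3′ end. Sntg1, which encodes a syntrophin of the dystrophin complex (chromosome 1, 8359739 to 9301657), had 21 domains, at 2.23 per 100 kb against 1.36 in Fhit. Naaladl2, of a peptidase family (chromosome 3, 23798103 to 25144149), also had 21, and 5.67% of its body was covered. Cntnap2, a neurexin-family adhesion gene (chromosome 6, 45060061 to 47301393, plus strand), had 20, which were narrower, with a median of 2.25 kb and a widest of 4.95 kb. In Cntnap2 they were also far apart, with a median gap of 93.3 kb.

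Agbl4, a carboxypeptidase that removes glutamates from tubulin, followed with 17 domains. A830018L16Rik, Thsd7b, the glypican gene Gpc5 and Pcdh15, a component of the hair cell tip link, had 16 each. Among these 4, A830018L16Rik was the shortest, 562.3 kb, and so the densest, with 2.85 domains per 100 kb and 10.9% of its body covered. Lrp1b, of the LDL receptor family, had 15 over 2058 kb, the sparsest of the 10 at 0.729 per 100 kb. The position of the median domain differed between genes: it stood at 0.291 of the way from the 5′ end in Agbl4, 0.404 in Fhit, 0.534 in Cntnap2, 0.544 in Pcdh15, 0.705 in Gpc5 and 0.720 in Thsd7b. These rest on 16 to 22 domains a gene, and the other 4 genes have no strand in the promoter table.

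**Figure D2:**
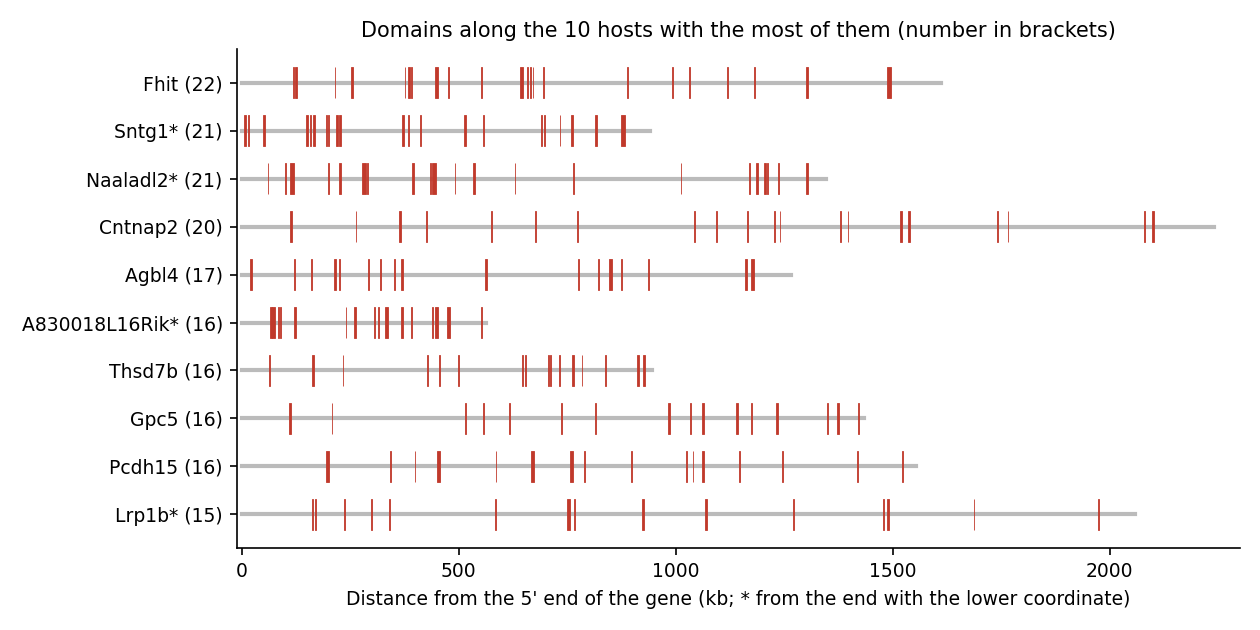
Domains (red) drawn along the bodies (grey) of the 10 hosts with the most of them, in kb from the 5′ end, or from the end with the lower coordinate for genes marked with an asterisk. Fhit holds 22 and Lrp1b 15, and in all 10 the domains are spread over the body in uneven runs; very narrow domains are widened by the line that draws them.

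Length alone did not fix the number of domains. The longest host, the receptor phosphatase gene Ptprd (2271 kb, chromosome 4), had 14. Lsamp, an IgLON adhesion gene of 2197 kb, had 13, and Macrod2, an ADP-ribose hydrolase gene, and the synaptic scaffold gene Dlg2, of 1998 and 1973 kb, had 10 each. Csmd1 and Ctnna3, which encodes an alpha-catenin, had 14 each. Nrxn3, a presynaptic adhesion gene of 1612 kb, the same length as Fhit, had 3 domains that covered 0.595% of it, against 22 and 4.27% in Fhit. Ctnna2, a second alpha-catenin gene with 1098 kb, had a single domain of 3.6 kb, and Opcml, with 1135 kb, also had 1.

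Of 517 genes of 300 kb or longer, 85 had no domain of this kind. The longest of them were Wwox, an oxidoreductase gene at a fragile site (913.1 kb), the transcription factor gene Npas3 (824.1 kb), the phosphatase gene Ptprm (687.6 kb), the junction scaffold gene Magi1 (608.5 kb) and the nuclear receptor gene Esrrg (606.4 kb). Next came Kalrn, Lpp, Foxp1, Kcnq5 and B3galt1, at 557.2 to 604.2 kb. Of these 10, named after their values were seen, 4 (Magi1, Esrrg, Foxp1 and B3galt1) had no domain of any width inside. Wwox, Npas3, Ptprm and Lpp had 1 each, and Kalrn and Kcnq5 had 2, all outside the width limits.

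**Figure D3:**
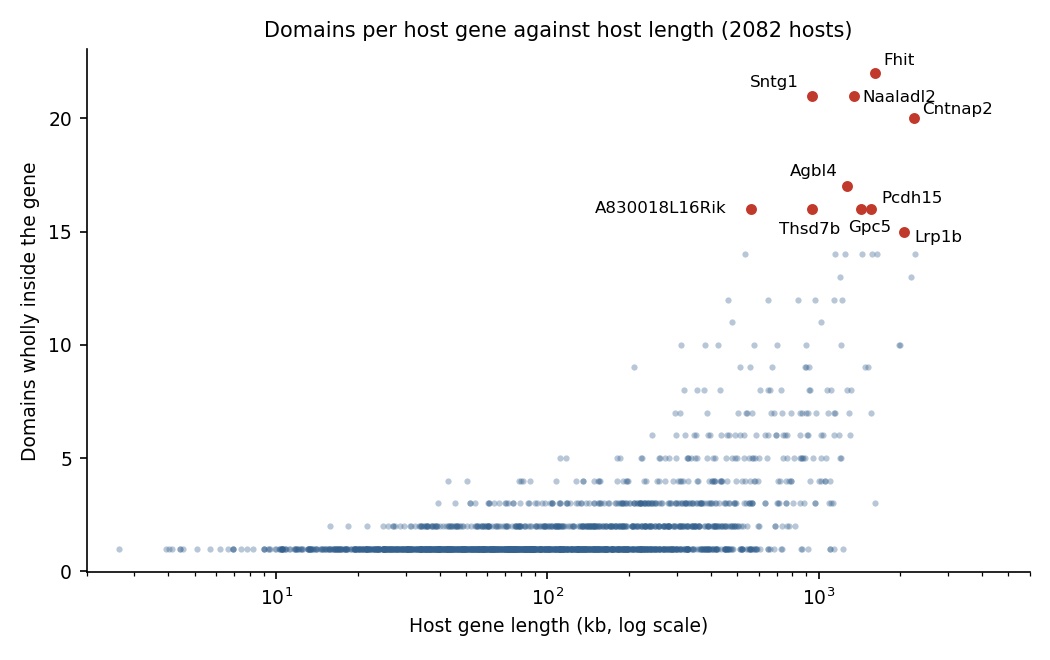
Number of H4K20me3 domains wholly inside each of the 2082 hosts against host length in kb on a log axis, 1 point per gene, with the 10 hosts of most domains in red. Counts above 10 occur among long genes, while genes near 1612 kb range from 3 (Nrxn3) to 22 (Fhit).

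Within their hosts, domains were spread over the body, with fewer close to either end. Position was taken as 0 where a domain touches the 5′ end and 1 where it touches the 3′ end. RefSeq promoters gave the strand for 1642 of 2082 hosts (78.9%), 820 on the plus and 822 on the minus strand. Over 3044 pairs with strand, the median position was 0.497 (quartiles 0.270 and 0.740). With bodies divided into 10 equal bins, the 5′-most bin held 240 pairs (7.88%), the 3′-most 250 (8.21%) and those between 292 to 347. For the 2100 pairs in hosts of 100 kb or longer, the 5′-most bin had 8.38%, the 3′-most 8.33% and the fullest, the third from the 5′ end, 12.0%. In the 975 pairs without strand, the median position from the lower coordinate was 0.499.

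Close to gene ends the density fell at both ends. Among 1713 genes of 100 kb or longer with known strand, domains whose centre lay within 5 kb of the 5′ end numbered 13, or 1.52 per Mb, and within 5 kb of the 3′ end 16, or 1.87 per Mb. From 5 to 10 kb the values were 2.45 at the 5′ end and 2.80 at the 3′ end. From 10 to 20 kb they were 3.79 and 4.26, from 20 to 30 kb 3.91 and 4.32, and from 30 to 40 kb 4.32 and 4.38. From 40 to 50 kb the 5′ value was 4.90 and the 3′ value 3.68, so beyond 10 kb the 3′ end showed no steady change. Further than 50 kb from both ends the density was 5.49 per Mb, a value weighted to the longest genes, whose length classes had the higher densities. Centres were used here so that a domain crossing the end was not lost. The measured distance from a domain to the nearer end of its host had a median of 48.5 kb, and 63 of 4019 pairs (1.57%) were within 1 kb of an end.

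**Figure D4:**
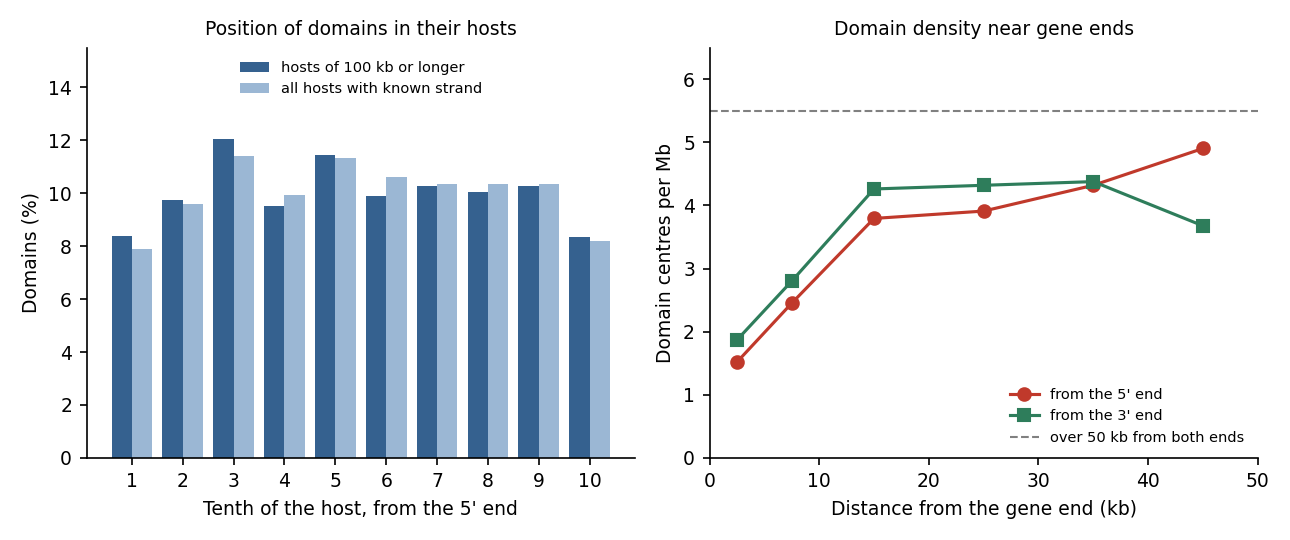
Left, percentage of domains in each of 10 equal bins of their host from the 5′ end, for hosts of 100 kb or longer (2100 pairs) and for all hosts with known strand (3044 pairs); the bins at either end are the lowest in both. Right, domain centres per Mb against distance in kb from the 5′ and 3′ ends of 1713 genes of 100 kb or longer, with a dashed line at 5.49 per Mb for sequence over 50 kb from both ends.

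The domains nearest to a host end stood within 102 bases of it. In Zfp977, a zinc finger gene, 2.7 kb began 45 bases inside the 5′ end. Cebpa, a transcription factor of myeloid and liver cells, had a domain of 1.2 kb that began 58 bases from its 5′ end. It is also the shortest host, with 2.636 kb, of which 45.5% was covered. The distance was 86 bases in Gsg1, 89 in 5430401F13Rik and 102 in Setdb1, all at the 5′ end. Just outside the rule, domains crossed the end of Hdgfl1 by 35 bases, of Cd3e, a T cell receptor subunit, by 87, and of Csn1s2b, a casein gene, by 129. For Vmn2r1 and Mcpt2 the figures were 153 and 183 bases. The boundaries of all 3957 domains fall on a grid of 150 bases, so distances below this are within the resolution of the list.

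The short hosts covered many kinds of gene. Hspa8, the constitutive HSC70 chaperone (chromosome 9, 40801276 to 40805202), had 1.65 kb covered, 42.0% of its body, and the domain also reached the snoRNA Snord14c. Gdf7, a BMP-family ligand gene, was covered over 40.9%, Grifin, a lens galectin-related gene, over 30.6% and Crlf2, the TSLP receptor gene, over 30.5%. Any domain of at least 1 kb fills much of so short a body, so the width rule largely sets the shares of the shortest hosts. The largest shares were in Bglap3, an osteocalcin-related gene (90.9% of 4.126 kb), 5430401F13Rik (90.0%), Polrmt, the mitochondrial RNA polymerase gene (60.1%, 6.3 kb), and Gm40460 (55.2%). Chst13, a chondroitin sulfotransferase gene, Dhrs2, the apoptosis nuclease gene Aen, Klrb1a, a natural killer cell receptor gene, the stefin gene Csta2 and Gm5916 followed, with 45.9 to 49.9%. Csta2 had 2 domains and the other 9 had 1.

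Domains inside genes were of similar width to those away from genes. Their median was 2.7 kb (quartiles 1.8 and 3.9 kb), against 2.85 kb (1.95 and 4.2 kb) for domains that overlapped no protein-coding gene and 4.12 kb (2.4 and 6.6 kb) for the 286 that overlapped one without lying inside. A width of 5 kb or more was found in 14.2% of domains inside genes, in 17.8% of those without a gene and in 41.3% of the 286. A wide domain is less likely to lie wholly inside a gene, so the rule itself bears on this order. At the width limits, 184 domains inside genes measured 1.05 kb and 133 just outside measured 0.900 kb, while 10 measured 9.9 kb and 9 just outside measured 10.05 kb. The 10 widest included domains in Nemp2, Syt14, Trdn, Vrk2, Alox15, Fhit, Gm7247 and Cped1, of which Trdn encodes triadin of the muscle calcium release complex and Alox15 a lipoxygenase. At the 8 Mb limit, the last start before it was 7942051 on chromosome 19, in Slc22a27, and the first after it 8081851, in the neighbouring transporter gene Slc22a28. Without width limits, 2374 genes (12.1%) had a domain inside, and 117 of the 2082 hosts also held a domain of 10 kb or wider.

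Neighbouring domains in the same host lay a median of 39.3 kb apart (quartiles 15.6 and 96.3 kb, 1937 gaps), and 17.2% of gaps were under 10 kb. Over all 20695 like domains the median gap was 49.95 kb and 14.6% of gaps were under 10 kb. Gaps inside a gene cannot exceed the gene, so the comparison favours short gaps in hosts. Among 377 hosts with 3 or more domains, the densest was Mup20, a major urinary protein gene with 4 domains in 42.8 kb (9.34 per 100 kb). Clec2g, a C-type lectin gene, had 7.95 per 100 kb, the vomeronasal receptor genes Vmn2r56 and Vmn2r91 had 7.60 and 5.82, and Gm41099 had 6.59. Agxt2, an aminotransferase gene, Eqtn, a sperm acrosome gene, Adam34l, the sulfotransferase gene Sult2a4 and Gm6351 followed, with 4.96 to 5.81. These 10 were ranked after their values were seen.

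By chromosome, hosts took from 4.87% of genes on chromosome 11 to 15.9% on chromosome 1. Chromosome 1 also had the most domains inside genes, 436, and the highest density, 5.74 per Mb of gene body. Next were chromosome 14 at 5.42 and chromosome 8 at 4.88. Chromosome 11 was lowest at 2.27, followed by chromosome 9 at 2.98. The share of like domains that lay inside a gene varied less, from 15.1% on chromosome 12 to 22.4% on chromosome 2. Chromosome 1 had the most like domains of any kind, 2089, of which 20.9% lay inside a gene, and chromosome 11 had 715, with 16.9%. Differences in gene length between chromosomes were not allowed for.

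Gene families differed widely in how many members were hosts, and much of this followed their lengths. Each of 30 lists is therefore given as hosts of genes, against the 10.6% of all genes, with the number that the host share of each length class would give for genes of those lengths. Of 64 cell adhesion and synapse organiser genes, 59 were hosts, where the length classes give 55.3. Their median was 4 domains at a median gene length of 846.9 kb, against 2.5 for all hosts of 300 to 1000 kb and 7.5 for those above 1000 kb. Of 25 fragile site symbols, Imp2l matched no tested gene, although the similarly named Immp2l is a host. The other 24 fragile site genes included 23 hosts, where the length classes give 21.9. Their median was 10 domains at a median gene length of 1213 kb, against the same 7.5 above 1000 kb, and 4 genes are in both lists. The 7.5 is over all 54 hosts of that length, which include genes of both lists. Both lists were chosen with earlier results of these data known. The fragile site list holds Fhit, Sntg1, Naaladl2 and Cntnap2, the hosts with the most domains, so its median is no independent comparison. Sgcz, a sarcoglycan gene, had 14 domains in the first list. Cadherins and unclustered protocadherins had 18 hosts of 39 (length classes, 14.8), led by Pcdh15, Cdh18 with 8, Cdh12 with 7 and Cdh13 with 6. Catenins had 3 of 6 (3.40), with 14 domains in Ctnna3, 3 in Ctnnd2 and 1 in Ctnna2, while receptor tyrosine phosphatases had 9 of 19 (9.30), with 7 domains in Ptprt and 4 in Ptprn2.

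Neurotransmitter receptor and channel genes stood near the number their lengths give. Glutamate receptors had 13 hosts of 24, where the length classes give 12.2. The metabotropic receptor gene Grm7 had 8 domains, and the kainate receptor gene Grik2 had 6. GABA and glycine receptors had 7 of 19 (5.08), with 9 domains in Gabrg3 and 5 in Gabrb1. Potassium channels had 22 of 89 (20.2), led by the channel-interacting Kcnip4 with 6, and calcium and sodium channels 12 of 36 (12.5), with at most 2 domains a gene, as in Scn1a and Cacna1a. Phosphodiesterases had 9 of 23 (9.16), with 6 domains in Pde4d and 5 in Pde1c, and solute carriers 44 of 341 (42.1), where Slc22a28 had 22.7% of its body in 3 domains.

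Structural, transport and protease genes followed. Axonemal dynein heavy chains had 9 hosts of 15 (8.20). Of their 40 domains, 10 lay in Dnah7c, 10 in Dnah7a and 7 in Dnah7b, near-copies on chromosome 1 at 46066071 to 53707301. The sources used here do not say how reads that map to several copies were counted, so the split between these 3 genes is uncertain. Collagens had 14 of 41 (12.3), with 4 domains in Col19a1 and in Col22a1. ABC transporters had 13 of 48 (9.12), with 6 in Abca13 and 3 in the bile salt pump gene Abcb11. ADAM and ADAMTS proteases had 18 of 58 (10.8), with 7 in Adam22 and in Adamtsl1 and 4 in Adam34l. Their host share was 31.0%, against 18.7% from the length classes, a difference that was not tested.

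Families with tandem copies carry the same doubt about reads from near-copies. The cytochrome P450, vomeronasal, Zfp, serpin and olfactory lists each had more hosts than the length-class number, by differing amounts. The counts for serpins and olfactory receptors are small. These differences were not tested, and genes of a cluster may not be independent. The lists were chosen with earlier results of these data known. Cytochrome P450 genes had 21 hosts of 92 (22.8%), where their lengths give 7.00. Of these, 13 were among 48 Cyp2 genes. Cyp2c39 had 5 domains in an annotated body of 222.2 kb, of which 1 also lay inside Cyp2c38. Cyp2j8 had 3, and Cyp4a32 and Cyp2j11 had 2 each, with 26.4 and 25.2% of their bodies covered. Vomeronasal receptors had 34 of 326 (10.4%), where their lengths give 9.64. They divided by type: 32 of 112 Vmn2r genes (median length 24.8 kb) and 2 of 214 Vmn1r genes (0.924 kb), so that most Vmn1r bodies are too short to contain a domain of 1 kb. Vmn2r56, Vmn2r91 and Vmn2r1 had 3 each. Zinc finger Zfp genes had 34 of 338 (10.1%, length classes 27.1), with 3 in Zfp462 and Zfp536 and 2 in Zfp445 and Zfp758, which had 29.3 and 27.7% of their bodies covered. Serpins had 6 of 62 (2.48), led by Serpina3j with 38.5% covered. Olfactory receptors had 10 of 1089 (5.18), with 2 domains in Olfr183 and Olfr1280. Their median length is 0.951 kb, so most of these bodies are also too short to contain a domain of 1 kb. The share of all genes under 10 kb is therefore no like-for-like yardstick for them. All 4 olfactory receptor genes of 30 kb or longer were hosts.

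Chromatin, germline and stem cell lists were small. H3K9 and H4K20 methyltransferases had 2 hosts of 8 (2.80), Setdb1 and Mecom. Setdb1 (chromosome 3, 95323525 to 95357202, minus strand), whose alleles are floxed in this line, held a domain of 1.2 kb that began 102 bases inside its 5′ end and one of 2.25 kb at 95338201 to 95340450. Suv39h2, Kmt5b and Kmt5c lie in the first 8 Mb of their chromosomes and Suv39h1 on X, outside the range used. HP1, KAP1 and DNA methylation factors had 5 of 27 (3.76): Morc1, a germline retroelement silencer, had 3 domains, and the HP1 gene Cbx1, the DNA methylation cofactor Dnmt3l, Atf7ip2 and Mbd5 had 1 each. Meiosis and piRNA genes had 8 of 40 (5.47), with 3 in the synaptonemal complex gene Sycp1, 2 in Tdrd9 and in Mei4 and 1 in the recombinase gene Dmc1. Imprinted genes had 10 of 50 (8.32), with 6 in Snrpn, whose annotated body spans 467.7 kb, and 2 in Qpct and in Slc22a2. Pluripotency genes had 2 of 35 (3.21), the LIF effector Stat3 with 3.15 kb and Etv5 with 1.65 kb.

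No host was found among 39 homeobox cluster genes, 76 ribosomal protein genes, 48 proteasome genes, 41 mitochondrial complex I genes or 30 cell cycle kinases and cyclins. Their lengths would give 0.697, 0.311, 2.32, 1.83 and 2.06 hosts, so in any 1 list the count of 0 is at most 2.32 below the length-class number. Most genes in these lists are short, with median lengths of 3.25 to 15.2 kb. Among all genes of 30 kb or longer, 26.2% were hosts. In these lists 3, 0, 8, 5 and 9 genes were that long, and none of them was a host.

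**Figure D5:**
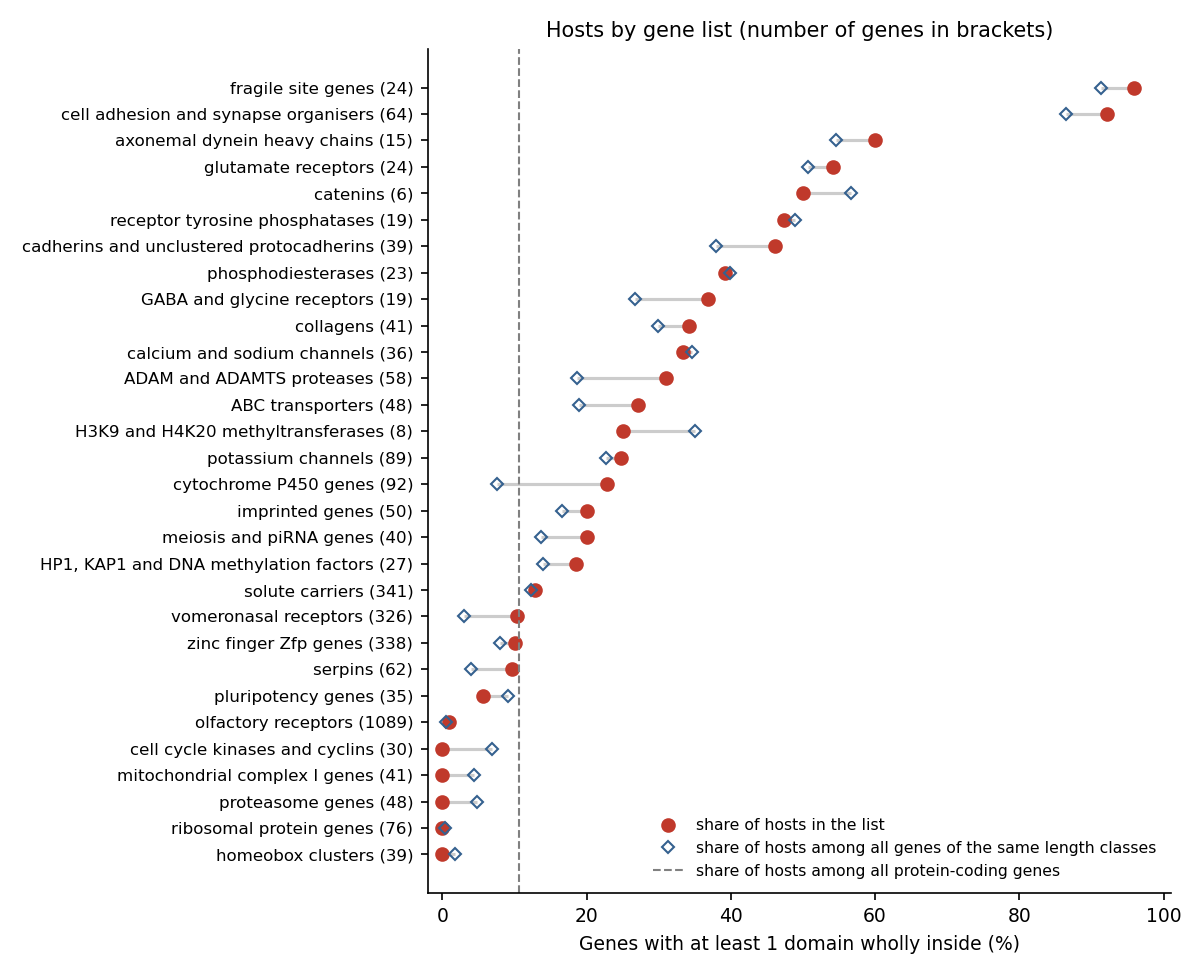
For 30 gene lists, the percentage of genes with at least 1 H4K20me3 domain wholly inside (red circles) beside the percentage among all protein-coding genes of the same length classes (blue diamonds), with a dashed line at 10.6% for all protein-coding genes. The widest gap above the diamond is that of cytochrome P450 genes, 22.8% against 7.61%.

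Few of these domains overlapped an annotated long noncoding RNA gene or pseudogene. Of 3957, 187 (4.73%) overlapped a long noncoding RNA gene or a pseudogene, against 13.1% of domains without a protein-coding gene and 10.5% of the 286 that crossed a gene end. Pseudogenes met 43 (1.09%), against 3.72% and 4.55% in the same classes, and 19 pseudogenes lay wholly inside a domain. How much of the sequence inside and outside protein-coding bodies such genes occupy was not measured. The classes differ by rule in where they can lie, so these shares are not like for like. Examples are Rpl27a-ps4 in Tnpo1, an importin gene, Rpl31-ps13 in Naip1, Ppp1r2-ps2 in Iqsec1, Itpa-ps2 in Pcolce2 and Gm46076 in Nrg1, the neuregulin gene. Hosts had further domains at their ends in 72 cases (3.46%), against 2.17% of other genes that were crossed at an end or engulfed by a domain. Both shares count domains of any width. Hosts were also much longer than other genes, and a short gene is more readily engulfed, so these 2 shares are not like for like either.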

How the data were processed

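The authors deposited 1 list of H4K20me3 domains giving chromosome, start and end only, with no value per domain or sample. The domains were called with RSEG, per the file name. Per the submitters' processing notes, the tools were bedtools, deepTools, SAMtools 1.1 and Bowtie2 2.3.4.1, and the builds GRCm38, mm10, mm9 and dm6. For the role of each tool, the RSEG settings and the libraries called on, nothing is stated in the sources used here. Per the series description, a Drosophila spike-in and inputs were part of the experiment, and they are not used here. Library depth is unknown, so no interval given here allows for read counts. No comparison of times could be made.

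Genes came from a RefSeq table of GRCm38.p6 (49997 genes), and strand and promoter windows from RefSeq promoters of the same build. A domain counted once in each protein-coding gene that wholly contained it. Other overlaps needed 1 base. Length-class expectations add up the host share of each gene's class. No genome was used, so sequence content of domains was not analysed. Members, gene lists and alternatives were chosen with earlier results of these data known. Genes named are the 10 hosts with most domains, largest covered share, greatest and least length, up to 4 per list, hosts of the widest domains and those nearest a gene end; others are marked or illustrate a count. Some genes that this rule names are not reported here. The code for the containment rule was checked on simulated data and recovered 1000 of 1000 planted hosts. The planted domains lay inside genes by construction, so this says nothing about how exact the listed boundaries are. Computations ran in Python 3.11.15 with pandas 2.3.3 and numpy 2.4.6, intervals in scipy 1.17.1 and plots in matplotlib 3.10.9.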

Additional observations from a re-analysis of the deposited data

How the results depend on the processing

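No paired analysis was possible because the list names no sample, so the shared replicate numbers of the 4 times enter no value. The number of domains inside genes ran from 2720 (at least 2 kb wide) to 4642 (no width limits) over the settings tried and the number of hosts from 1584 to 2374, within 1.5 times of the values given. A median or share was taken to have moved when it left the 95% binomial or Poisson interval of the value given, an interval that treats domains as independent. Of 76 values under an alternative, 65 had not moved by this measure and 11 had. With no width limits, median host length was 100.8 kb and density 4.90 per Mb. At 2 kb or wider, host length was 129.9 kb, hosts with 1 domain 68.75%, the mean 1.73 per host and density 2.87 per Mb, the last by removal of narrow domains. With domains closer than 5 kb merged, the same 3 values were 67.7%, 1.83 and 3.85. Leaving out 1 chromosome gave densities of 4.04 to 4.29 per Mb. Counting each domain with its longest host raised the median host length to 235.2 kb, since long genes then count many times. Median position stayed between 0.491 and 0.503 in every setting for which it was computed, which leaves out that last one. Of the 30 lists, 20 stood above the share of all genes, 21 with domains of any width and 20 among genes of 30 kb or longer (against 26.2%), where vomeronasal and olfactory receptors came in and solute carriers and HP1, KAP1 and DNA methylation factors dropped out. Of 59 list shares under an alternative, 8 moved. Among genes of 30 kb or longer the shares were 100% for olfactory receptors (4 genes), 56.4% for vomeronasal receptors, 54.8% for cytochrome P450 genes, 48.5% for ADAM and ADAMTS proteases, 44.0% for potassium channels, 25.3% for solute carriers and 23.4% for Zfp genes. With domains of any width, fragile site genes stood at 100%. Sequence content of domains was not run for want of a genome.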

Other observations

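Of the domains inside genes, 4 overlapped a snoRNA gene and 3 an snRNA gene. The snoRNA genes were Snord14c in Hspa8, Gm23266 in Nlrp1b, an inflammasome sensor gene, Gm22374 in Ccdc7b and 1 more in the zinc finger gene Zfp808. The snRNA genes were Gm22352 in Myef2, Gm27343 in 6820408C15Rik and Gm22092 in Zswim5. The snoRNA and snRNA genes are 0.063 to 0.134 kb long and lie in domains of 1.2 to 6.75 kb. Snord14c and Gm22092 straddle a domain boundary, and the other 5 lie wholly inside. A further domain, in Gm14461, overlapped Gm39864, of 6.006 kb and the class misc_RNA.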
